A study of Mus musculus with 9 samples.

Results

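Polyamine metabolism was examined through 8 of the 32285 mouse genes counted in each library: Smox, Paox and Sat1 of polyamine breakdown, Odc1, Amd1, Srm and Sms of synthesis, and the regulator Azin1. The group was chosen from measured values of these same libraries, because Smox UMI counts were higher in all 5 tumors. The tumor against control values of Smox are therefore given as a description without a test. The other members and the gene lists were also chosen with earlier results of these data known. Medians of the members beside those of all genes are therefore descriptions. Single-cell libraries came from the brains of 5 tumor-bearing and 4 control mice, all 6 to 8 weeks old, and each mouse was 1 sample. Tumor mice (EPZFTA-RELA) carried NestinCreERT2;Fus1, in which a conditional ZFTA-RELA fusion allele at the Rosa26 locus is recombined in Nestin-expressing embryonic radial glia and gives rise to an ependymoma. Control mice carried NestinCreERT2;TdT, so both groups shared the Nestin-driven, tamoxifen-inducible Cre. The labels name the red fluorescent TdT reporter in the controls alone, whereas the paper also describes its signal in tumor mice. UMIs of the added tomato sequence were 0 in tumors 1 to 5, 283 to 367 in controls 1 to 3, and not read in control 4. The paper's methods describe dissection of tumor or matching brain regions and removal of choroid. Dissociated tissue was sorted for cells negative for DAPI, which marks dead cells, after staining with Ter119, a red cell marker. In the paper's methods the staining also included an antibody to CD45, an immune cell marker. Most kept control cells here were neuron-like by marker genes, so a selection by CD45 is not assumed for these libraries. Whether same-group mice shared a litter was not given in the sources used here.

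Polyamines are small positively charged molecules, putrescine, spermidine and spermine, that bind nucleic acids and are needed for growth. Ornithine decarboxylase (Odc1) makes putrescine from ornithine, and S-adenosylmethionine decarboxylase (Amd1) makes the aminopropyl donor. With that donor spermidine synthase (Srm) and spermine synthase (Sms) build spermidine and then spermine. Spermine oxidase (Smox) turns spermine back to spermidine and releases hydrogen peroxide. Sat1 acetylates spermidine and spermine, and the peroxisomal oxidase Paox acts on the acetylated forms. Azin1 binds antizyme, the protein that sends ornithine decarboxylase to degradation, and so spares the enzyme.

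The windows from 250 bases before to 50 after the start site are shown for 4 members, taken from RefSeq on build GRCm38.p6. Smox is shown as the gene the group was built on, Sat1 and Odc1 because they rose in tumors and Sms because it fell. Capitals mark a match to one of 6 motifs searched on both strands: the E-box CACGTG, the AP-1 letters TGANTCA, the cyclic AMP response element TGACGTCA, the antioxidant response element TGACNNNGC, the box CCAAT and the NF-kB consensus. These 6 stood in 7.15%, 7.81%, 1.79%, 12.4%, 37.4% and 8.46% of 32851 windows of this length.
Smox chr2:131491612-131491911 plus strand: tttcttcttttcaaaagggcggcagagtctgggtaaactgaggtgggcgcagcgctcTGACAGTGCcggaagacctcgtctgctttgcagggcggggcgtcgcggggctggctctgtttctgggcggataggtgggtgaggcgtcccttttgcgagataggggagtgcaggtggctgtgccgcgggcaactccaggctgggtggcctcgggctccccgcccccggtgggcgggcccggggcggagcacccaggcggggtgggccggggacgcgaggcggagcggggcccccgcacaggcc
Sat1 chrX:155216400-155216699 minus strand: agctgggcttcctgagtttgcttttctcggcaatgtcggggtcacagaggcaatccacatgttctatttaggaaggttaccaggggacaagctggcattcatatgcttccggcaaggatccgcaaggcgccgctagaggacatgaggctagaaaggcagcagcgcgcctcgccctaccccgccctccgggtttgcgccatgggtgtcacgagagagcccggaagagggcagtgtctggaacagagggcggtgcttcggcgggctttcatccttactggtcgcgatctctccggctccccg
Odc1 chr12:17544623-17544922 plus strand: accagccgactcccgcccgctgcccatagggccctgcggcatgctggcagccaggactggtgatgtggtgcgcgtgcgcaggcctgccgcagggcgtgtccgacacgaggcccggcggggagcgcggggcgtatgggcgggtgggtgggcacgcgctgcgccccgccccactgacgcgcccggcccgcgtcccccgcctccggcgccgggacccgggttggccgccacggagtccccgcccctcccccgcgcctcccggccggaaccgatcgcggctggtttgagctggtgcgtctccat
Sms chrX:157492238-157492537 minus strand: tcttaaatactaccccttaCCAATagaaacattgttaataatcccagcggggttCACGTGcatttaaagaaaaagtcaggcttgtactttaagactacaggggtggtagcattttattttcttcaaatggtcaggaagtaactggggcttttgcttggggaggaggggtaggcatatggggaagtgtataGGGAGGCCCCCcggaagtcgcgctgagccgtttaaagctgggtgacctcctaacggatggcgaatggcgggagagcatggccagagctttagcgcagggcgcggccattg
The Smox window held 1 match, to the antioxidant response letters. The first of the 2 Sms windows held a CCAAT box, an E-box and the NF-kB consensus at 2 overlapping positions, and the second Sms window held the NF-kB consensus alone. None of the 6 sets of letters stood in the Sat1, Odc1, Amd1 or Paox windows. Srm and Azin1 were not matched.

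In GENCODE M21 on GRCm38 Smox spans chr2:131491496-131525922 and Odc1 chr12:17544794-17551505. Sat1 at chrX:155213132-155216449 and Sms at chrX:157443855-157492287 both lie on the X chromosome. Amd1 spans chr10:40287458-40302186, Srm chr4:148591503-148594993, Azin1 chr15:38487427-38519266 and Paox chr7:140115799-140137224. Paox overlaps Echs1 on the other strand, and Azin1 overlaps an antisense gene. Amd1 has a near-identical copy, Amd2, at chr10:35708675-35711892, and 86.1% of the 3155 windows of 50 bases of the Amd1-201 transcript also occur in Amd2-201. Amd1 counts are therefore uncertain, because reads that fit both copies are not assigned by the counting.

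Control libraries held 75222 to 86516 barcodes and tumor libraries 9001 to 26341. Their UMIs numbered 101060608 to 178086164 in controls and 14967680 to 69411387 in tumors. This difference runs along with the groups, and its part in the results below was not tested. The filters kept 4024 to 6352 cells per control and 1588 to 5099 per tumor, with 13775494 to 21720368 and 5925985 to 37704700 UMIs in all. The median was 2040.0 to 4113.5 UMIs per cell in controls and 2067 to 6535 in tumors, and the mean mitochondrial share 7.5% to 8.62% and 2.15% to 10.5%. Among the 8 libraries other than control 4, whose barcodes could not be matched to its columns, pairs shared at most 10 cell barcodes, and at most 0.261% of the smaller one's cells. UMIs of the fusion sequence were 0 in controls 1 to 3 and were not read in control 4. They numbered 5, 228, 6, 700 and 312 in tumors 1 to 5, so tumors 1 and 3 stood apart by having few. A list of 10 dissociation stress genes summed to 212 to 358 counts per 1000000 UMIs (CPM) in controls and to 688, 1729, 4835, 2906 and 579 in tumors 1 to 5. Neuron markers (11 genes) summed to 26600.2 to 29388 CPM in controls against 396 to 10923 in tumors, and microglia markers (10 genes) to 563 to 694 against 2314 to 11522. Sums over all kept cells therefore compare tissues of different makeup, and the part of makeup or stress in the results below was not tested.

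Over all kept cells, breakdown genes and the first and the spermidine steps of synthesis were higher in tumors, and spermine synthase was lower. Smox stood at 9.36, 10.3, 9.28 and 9.76 CPM in controls 1 to 4. It stood at 69.4, 35.5, 69.5, 59.9 and 57.8 CPM in tumors 1 to 5. The groups did not overlap, and tumor 2 was the lowest tumor. The mean of log2(CPM + 1) was 5.85 in tumors and 3.41 in controls, a difference of 2.44 or 5.42-fold, with a pooled SD of 0.298 (n = 5 and 4).

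Sat1, the acetyltransferase, was at 48.0 to 63.2 CPM in controls and at 219, 253, 344, 221 and 154 CPM in tumors 1 to 5, without overlap. Its fitted log2 change was 2.33 ± 0.24 (SE, edgeR quasi-likelihood test, adjusted p = 0.000152, n = 5 and 4), a 5.04-fold rise by the fit. By means of log2(CPM + 1), the measure given for Smox, the rise of Sat1 was 4.09-fold. Paox was at 4.94, 5.56, 5.93 and 5.25 CPM in controls and at 8.78, 14.1, 12.8, 11.5 and 6.87 CPM in tumors. All 5 tumors again exceeded the controls, and the log2 change was 1.27 ± 0.29 (edgeR adjusted p = 0.00409).

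Among synthesis genes, Odc1 was at 43.2 to 48.6 CPM in controls and at 79.5, 123, 88.6, 117 and 245 CPM in tumors 1 to 5. Tumor 5 was far above the other tumors, and the log2 change was 1.80 ± 0.37 (edgeR adjusted p = 0.00277). Srm rose from 15.3, 18.9, 17.2 and 17.8 CPM to 27.8, 45.4, 50.2, 78.2 and 47.7 CPM, a log2 change of 1.83 ± 0.34 (edgeR adjusted p = 0.00148). Sms went the other way. It was at 126, 122, 114 and 121 CPM in controls and at 62.1, 14.7, 46.3, 13.7 and 44.1 CPM in tumors, with tumors 2 and 4 lowest and no overlap. Sms fell by 1.58 ± 0.35 on the log2 scale (edgeR adjusted p = 0.00403), 2.99-fold by the fit and 3.86-fold by means of log2(CPM + 1).

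Amd1 and Azin1 overlapped between groups and did not pass the test. Amd1 was at 37.4 to 40.1 CPM in controls and at 41.5, 25.6, 39.7, 21.0 and 13.1 CPM in tumors (edgeR log2 change −0.26 ± 0.25, adjusted p = 0.391). Azin1 was at 78.0 to 89.8 CPM in controls and at 88.1, 69.9, 66.0, 60.6 and 61.3 CPM in tumors (edgeR log2 change −0.05 ± 0.15, adjusted p = 0.762).

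In all, 4 of the 7 tested members were higher and 1 lower at an adjusted p under 0.05. Of 17607 genes tested, 61.8% passed in either direction, 32.4% higher and 29.5% lower, so 5 of 7 is near the share of all genes. The share of all genes whose groups do not overlap is not given here, so non-overlap of members is a description. The median log2 change of the 7, chosen with earlier results of these data known, was 1.27, against 0.04 for all genes tested. The same 5 members passed without tumors 1 and 3 and without tumors 3 and 4.

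**Figure D1:**
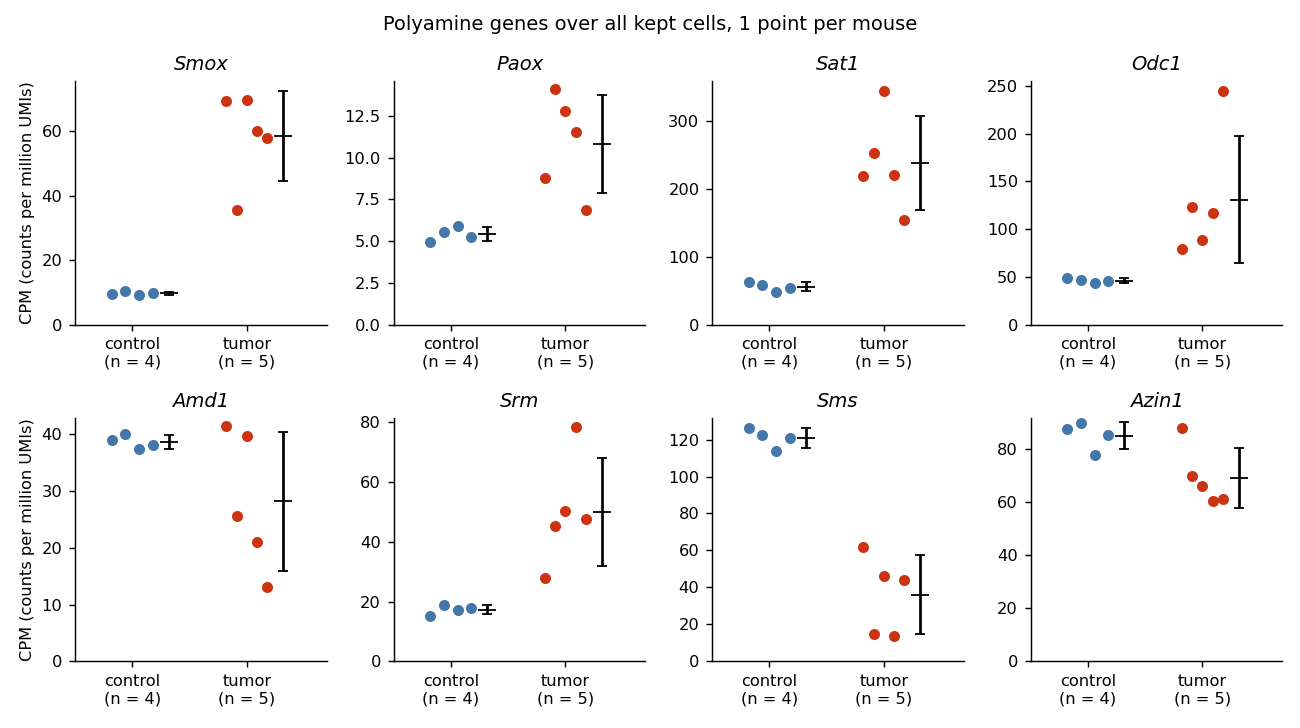
CPM (UMIs per 1000000) of the 8 members over all kept cells, with a panel per gene. Each point is a mouse, blue for the 4 controls and red for the 5 tumors, and the bar beside each group is the mean with 1 SD. Smox, Paox, Sat1, Odc1 and Srm lie higher in all 5 tumors, Sms lies lower, and Amd1 and Azin1 overlap. The share of all genes lying apart in this way is not given.

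The other genes of the pathway moved in both directions over all kept cells. Of 37 listed, 35 passed the filter on low counts, 17 were higher and 8 lower (edgeR adjusted p under 0.05), with a median log2 change of 0.55. Slc3a2, the heavy chain of several amino acid transporters, rose from 63.2 to 67.5 CPM in controls to 184 to 274 CPM in tumors (log2 change 2.01 ± 0.20). Slc7a2, a cationic amino acid transporter that carries arginine, was at 7.5 to 8.90 CPM in controls and 20.2 to 31.2 CPM in tumors (1.89 ± 0.20). Nos2, which makes nitric oxide from arginine, rose by 4.32 ± 0.57 on the log2 scale. It rested on 1, 1, 1 and 5 UMIs in controls and 7, 29, 11, 62 and 51 in tumors, and 6, 14, 5, 44 and 10 of the tumor UMIs fell in endothelial-like cells. The lower genes of smallest p were the antizyme Oaz3 (−3.15 ± 0.36), Eif5a2, a carrier of the spermidine-derived residue hypusine (−1.39 ± 0.22), and the mitochondrial arginase Arg2 (−2.09 ± 0.55). Neuron-like control cells held Oaz3 at 22.7 to 26.1 CPM.

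To see levels within cell types, cells were gated by marker lists into classes named for the markers, such as microglia-like, and sums of at least 50 cells of 1 mouse were compared. The gate left 11.0% to 15.4% of control cells and 14.2% to 47.7% of tumor cells without a class. The 10 genes that led a class by fold held 4 or more of its own markers in 10 of the 12 classes. Because cells were gated by these same markers, this is in part set by the gate and gives no separate support. The leading genes held 0 in neuron-like cells and 0 in neural progenitor-like cells, where mitotic genes such as Cenpf, Cenpe, Hmmr, Cdc20 and Aspm led. All classes are thus named by the gate, and the neuron-like and progenitor-like classes lack even this lead of their markers. In controls Smox was higher in microglia-like than in neuron-like cells in 4 of 4 mice. Neuron-like cells were at 7.98, 8.81, 7.43 and 8.90 CPM and microglia-like cells at 21.2, 36.3, 29.7 and 36.2 CPM, the latter from only 6, 17, 9 and 14 UMIs. Oligodendrocyte-like cells reached 50 cells in controls 1 and 2, with 6.08 and 10.2 CPM from 1 and 2 UMIs. Erythroid-like cells reached 50 cells in controls 1, 2 and 4, with 13.4, 14.3 and 4.19 CPM from 3, 5 and 1 UMIs. The barcodes of fewest UMIs in controls 1 to 4 held 9.48, 8.83, 6.36 and 5.97 CPM. The oligodendrocyte-like levels and the erythroid-like level of control 4 lay near or below these values and, at 1 or 2 UMIs, are not told apart from background. The neuron-like levels of controls 1 and 2 also lay near or below these values, and those of controls 3 and 4 lay above them. With RNA outside cells taken out by the erythroid markers, as described below, neuron-like cells of controls held 7.13 to 10.8 CPM. Where a class lies near the barcodes of fewest UMIs, this subtraction returns nearly the same level. It therefore does not tell the neuron-like levels of controls 1 and 2 apart from background. With control mice pooled, Smox stood at 31.3 CPM in 60 endothelial-like cells (9 UMIs, 95% exact Poisson interval 14.3 to 59.4) and at 38.0 CPM in 92 astrocyte-like cells (13 UMIs, 20.2 to 65.0). These intervals cover counting error only.

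In tumors, among sums of at least 50 cells, Smox was highest in oligodendrocyte-like cells of tumors 1 and 2, endothelial-like cells of tumor 3 and oligodendrocyte precursor-like cells of tumors 4 and 5. Endothelial-like cells were at 82.4, 70.3, 105, 76.1 and 117 CPM in tumors 1 to 5 and exceeded microglia-like cells in 5 of 5 tumors. Microglia-like cells were at 49.7, 40.0, 68.4, 40.9 and 60.9 CPM. Astrocyte-like cells, with at least 50 cells in tumors 1, 2, 4 and 5, were at 119, 51.4, 58.0 and 92.7 CPM, and led in none of the 4. Oligodendrocyte precursor-like cells were at 56.4, 99.0 and 122 CPM in tumors 2, 4 and 5. Oligodendrocyte-like cells were at 125 and 74.9 CPM in tumors 1 and 2. Neural progenitor-like cells were at 26.6, 57.2 and 42.0 CPM in tumors 2, 4 and 5, level with astrocyte-like cells in tumor 4, and neuron-like cells at 25.9, 25.4 and 42.7 CPM in tumors 1, 2 and 5. Neuroblast-like cells of tumor 5 were at 23.6 CPM, and erythroid-like cells at 6.88 CPM in tumor 2, from 1 UMI, and at 59.9 CPM in tumor 3. Mice spread widely within a class, so that the order of neighbouring classes changed from tumor to tumor.

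**Figure D2:**
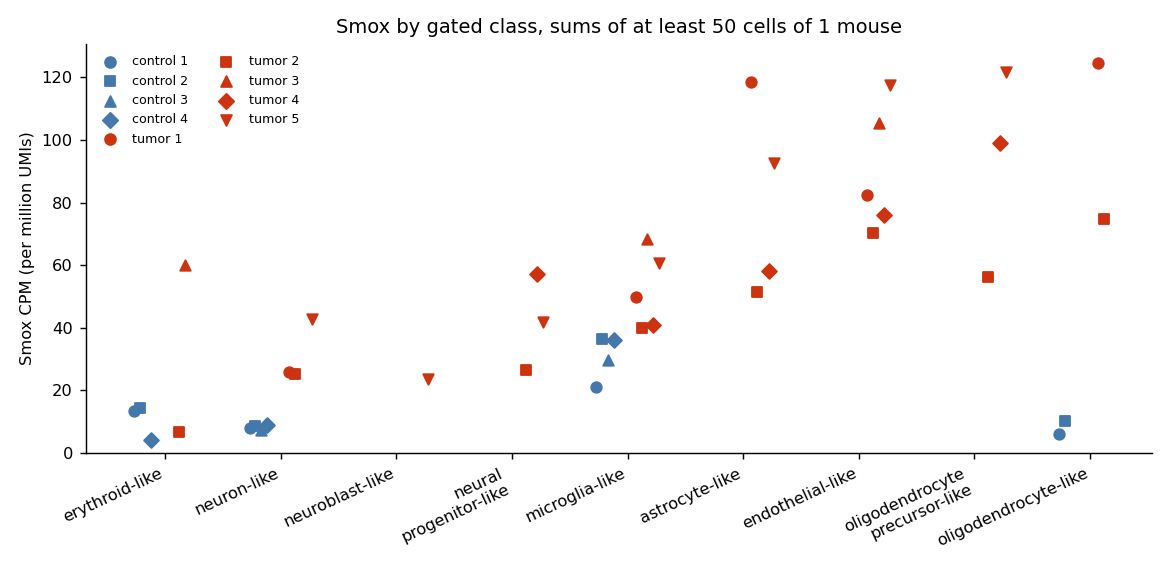
Smox CPM by gated class for sums of at least 50 cells. Each symbol is a mouse (blue controls, red tumors, symbol shape gives the replicate). Tumor sums run from 6.88 CPM in erythroid-like cells to 125 CPM in oligodendrocyte-like cells, and control sums from 4.19 CPM in erythroid-like to 36.3 CPM in microglia-like cells.

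Smox was read in tumor cells with and without UMIs of the fusion allele. Cells with a UMI of the fusion or luciferase sequence were at 90.2, 32.0, 52.5, 59.1 and 52.4 CPM in tumors 1 to 5. Cells without such a UMI were at 68.2, 37.5, 71.4, 62.5 and 60.7 CPM, higher in 4 of 5 tumors. A missing UMI does not show that a cell lacks the allele. Of neural progenitor-like tumor cells 73.7% had such a UMI, against 11.8% of microglia-like and 7.45% of endothelial-like cells.

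RNA outside cells has to be read beside any value within a class. The 3000 barcodes of fewest UMIs in the files of each library, which were not shown to be empty of cells (medians of 559 to 1338 UMIs), held Smox at 5.97 to 9.48 CPM in controls and at 27.0 to 85.0 CPM in tumors. If their RNA is taken as free RNA, its part in the microglia-like sums can be read from genes that microglia lack. It came to 20.9% to 45.4% of control and 1.81% to 16.0% of tumor sums by the 5 erythroid genes, and to 55.7% to 75.3% of control and 5.45% to 29.2% of tumor sums by the 11 neuron genes. Oligodendrocyte genes, which were not used for the subtraction, gave 69.8% to 71.8% in controls and 9.58% to 55.7% in tumors, with tumor 4 highest. Control microglia-like sums thus held a larger share than those of tumors by each of these lists. The tumor against control value of each member in microglia-like cells is therefore given with that RNA left in and taken out. It was left in for the other pathway genes there and for comparisons of classes within tumors. In neural progenitor-like cells of tumors 2, 4 and 5, where Smox was at 26.6, 57.2 and 42.0 CPM, those 3000 barcodes of the same libraries held 27.0, 54.7 and 54.8 CPM.

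As counted, Smox was at 21.2 to 36.3 CPM in control and 40.0 to 68.4 CPM in tumor microglia-like cells, with no overlap. With free RNA taken out by the erythroid list it was at 28.6 to 61.0 CPM in controls and 40.5 to 66.5 CPM in tumors, which overlap. By the neuron list it was at 42.8 to 85.1 CPM in controls, median 69.6, and at 34.9 to 67.4 CPM in tumors, median 47.9. The order of the medians turned, so a higher Smox level in tumor microglia-like cells holds for the counts as deposited and not under the neuron list.

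In microglia-like cells Sat1 was at 265, 231, 260 and 269 CPM in controls and at 534, 438, 706, 571 and 481 CPM in tumors. The log2 change was 1.47 ± 0.20 (edgeR adjusted p = 0.00025, n = 5 and 4). With free RNA taken out the log2 change was 1.05 by the erythroid list (edgeR adjusted p = 0.00508) and 0.87 by the neuron list (edgeR adjusted p = 0.0179). By the latter the groups overlapped, at 503 to 685 CPM in controls (median 565) and 494 to 736 CPM in tumors (median 670.4). Paox, at 10.6 to 21.4 CPM in controls and 19.6 to 47.0 CPM in tumors with tumor 5 among the controls, rose by 1.47 ± 0.37 on the log2 scale (edgeR adjusted p = 0.00874). It passed under the erythroid list (adjusted p = 0.0382) and not under the neuron list (adjusted p = 0.0946).

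Synthesis genes moved in both directions in microglia-like cells. Odc1 was at 31.8, 44.8, 19.8 and 28.5 CPM in controls and at 31.7, 44.1, 44.5, 123 and 94.4 CPM in tumors, with tumors 4 and 5 high and the others among the controls. Its log2 change was 1.51 ± 0.45 (edgeR adjusted p = 0.0204), and it passed with free RNA taken out by either list. By the neuron list controls 1, 3 and 4 went to 0 and control 2 stood at 30.4 CPM, against 22.9 to 128 CPM in tumors, so that call rests on controls from which nearly all Odc1 was removed. Srm changed least of the rising genes (0.84 ± 0.29, edgeR adjusted p = 0.0377), overlapped between groups, and did not pass under either list. Sms was at 65.9 to 113 CPM in controls and 20.4 to 33.6 CPM in tumors and fell by 1.40 ± 0.22 on the log2 scale (edgeR adjusted p = 0.000567). Under the neuron list the sign of Sms turned, to a log2 change of 0.87 (adjusted p = 0.329). Amd1, at 44.0 to 61.9 CPM in controls and 4.90 to 22.6 CPM in tumors, fell by 1.65 ± 0.34 (edgeR adjusted p = 0.00293). It passed under the erythroid list and fell out of the filter on low counts under the neuron list. Azin1, at 81.3 to 125 CPM in controls and 39.1 to 63.3 CPM in tumors, fell by 0.73 ± 0.21 (edgeR adjusted p = 0.0151) and passed under the erythroid list alone.

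All 7 tested members thus passed in microglia-like cells as counted, 4 higher and 3 lower, where 37.2% of 8493 genes passed, 17.0% higher and 20.2% lower. The median log2 change of the 7 was 0.84, against −0.03 for all genes tested. These are fitted changes, after scaling between the sums. Means of log2(CPM + 1) as counted gave smaller rises, of 1.07 for Sat1, 1.01 for Paox, 0.96 for Odc1 and 0.44 for Srm. They gave larger falls, of −2.01 for Amd1, −1.73 for Sms and −1.08 for Azin1. The rising calls thus depend in part on the scaling. Under the erythroid list 6 passed and under the neuron list 2, Sat1, whose groups then overlapped, and Odc1, with 3 of 4 controls at 0. Of all genes tested 28.8% passed under the erythroid and 29.1% under the neuron list. Amd1 was not tested under the neuron list, and the share of tested members that passed there is near that of all genes. Macrophage markers (8 genes) summed to 122 to 185 CPM in control and 806 to 8931 CPM in tumor microglia-like sums, and stress genes to 608 to 1160 and 882 to 12411 CPM. The part of other myeloid cells or of stress was not tested. Without tumors 3 and 4, the highest 2 by stress genes over all kept cells, 6 of the 7 passed, Azin1 being lost.

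**Figure D3:**
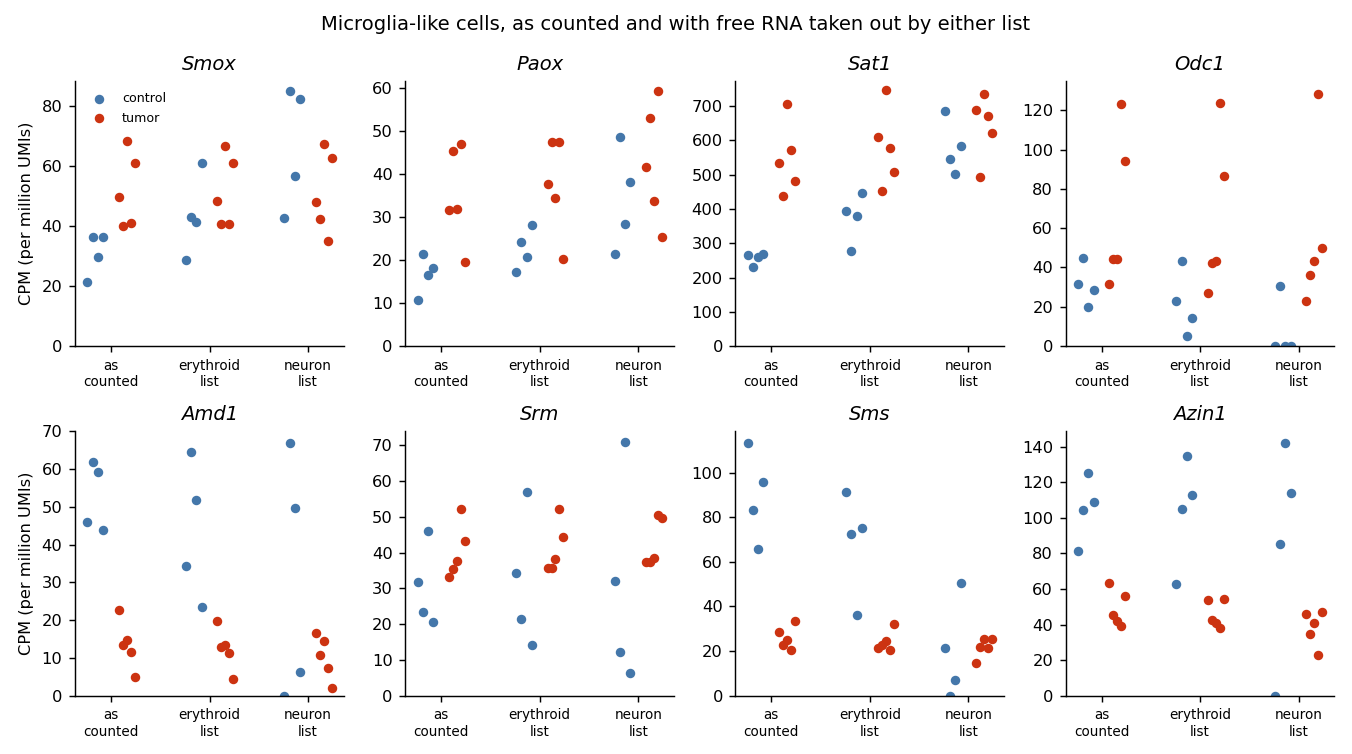
CPM of the 8 members in microglia-like cells as counted and with free RNA taken out by the erythroid or the neuron list. Points are mice, blue for 4 controls and red for 5 tumors. Control Smox points move from 21.2 to 36.3 CPM as counted to 42.8 to 85.1 CPM under the neuron list, among and above the tumor points.

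Of the other pathway genes 19 passed the filter in microglia-like cells, 5 higher and 3 lower, with a median log2 change of 0.10, all as counted and with free RNA left in. Slc3a2 (1.32 ± 0.21), Eif5a, the main hypusine carrier (1.52 ± 0.31), and antizyme Oaz1 (1.26 ± 0.31) were the higher genes of smallest p. Eif5a2 (−1.79 ± 0.39), antizyme Oaz2 (−0.98 ± 0.28) and Mat2b, a subunit of the enzyme that makes S-adenosylmethionine (−0.68 ± 0.24), were lower.

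Neuron-like cells could be compared between 4 controls and tumors 1, 2 and 5. Smox was at 7.43 to 8.90 CPM in controls and at 25.9, 25.4 and 42.7 CPM in tumors, and at 7.13 to 10.8 and 18.5 to 41.3 CPM with free RNA taken out by the erythroid list. The 3000 barcodes of fewest UMIs in tumors 1, 2 and 5 held Smox at 54.7, 27.0 and 54.8 CPM, above the neuron-like cells of each, and those of controls held 5.97 to 9.48 CPM, at or above the neuron-like cells of controls 1 and 2. Oligodendrocyte genes gave a larger part of free RNA in neuron-like sums, 47.2% to 52.6% in controls and 37.0%, 27.6% and 27.0% in tumors 1, 2 and 5, and were not used for the subtraction. Odc1 was the member that passed, at 40.7 to 50.3 CPM in controls and 63.9, 66.3 and 160 CPM in tumors (edgeR log2 change 0.89 ± 0.26, adjusted p = 0.0389). The 3000 barcodes of fewest UMIs held Odc1 at 43.9 to 48.9 CPM in controls and at 53.0, 86.2 and 200.3 CPM in tumors 1, 2 and 5, above the neuron-like cells of tumors 2 and 5. That call was lost without any 1 control, without tumor 5, and under several alternatives given in the closing section. The other 6 did not pass: Sat1 0.57 ± 0.20, Srm 0.65 ± 0.27, Amd1 −0.67 ± 0.24, Sms −0.56 ± 0.21, Paox −0.26 ± 0.35 and Azin1 −0.10 ± 0.16. In these cells 17.5% of 16856 genes passed, 8.85% higher and 8.67% lower, against 1 of 7 members. The median log2 change was −0.10 for the 7 and −0.01 for all genes tested. Of 34 other pathway genes tested 3 were higher, Atp13a2, a lysosomal polyamine exporter (1.00 ± 0.16), Slc7a2 (1.25 ± 0.27) and Oat, ornithine aminotransferase (0.56 ± 0.15). Lower were Oaz3 (−2.60 ± 0.38), Gatm, the first enzyme of creatine synthesis (−1.22 ± 0.23), and Arg2. In endothelial-, astrocyte- and oligodendrocyte-like cells fewer than 3 controls reached 50 cells, so no test between groups was run there.

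Whether the tumor difference itself differed between microglia-like and neuron-like cells was tested for the 7. It was larger in microglia-like cells for Paox, by 1.83 ± 0.51 on the log2 scale (edgeR adjusted p = 0.0126), and for Sat1, by 0.90 ± 0.22 (edgeR adjusted p = 0.00451). Paox was at 4.75, 5.45 and 1.86 CPM in neuron-like cells of tumors 1, 2 and 5, from only 9, 6 and 1 UMIs, against 4.60 to 5.52 CPM in those of controls. The tumor 5 value lies below the 5.57 CPM that 3 UMIs would give there. For comparison, 18.6% of 12655 genes passed, 7.75% higher and 10.9% lower. The median was 0.21 for the 7 members and 0.00 (−0.0035) for all genes tested. Both calls were lost when free RNA was taken out by the erythroid list (adjusted p = 0.154 for Paox and 0.278 for Sat1; the neuron list was not run here) and under scaling by library size. Of 27 other pathway genes 4 were higher, among them Gatm (1.93 ± 0.35), Slc3a2 (1.19 ± 0.24) and Eif5a (0.99 ± 0.21), and 0 were lower.

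Classes were then compared within tumors, a contrast that played no part in choosing the members, so Smox was tested here. Progenitor-like sums came from tumors 2, 4 and 5 alone, so only these mice held both classes of a comparison. The fits also held sums of other classes and tumors. These enter the fitted log2 differences, through the terms for mouse, and the estimate of spread behind each p. Small p values here do not stand for more mice than these. Progenitor-like cells are those of the gate whose leading genes were mitotic. Endothelial-like cells held more Smox than neural progenitor-like cells, by 1.01 ± 0.25 on the log2 scale (edgeR adjusted p = 0.00201), or 2.02-fold. The call was lost without tumor 2 or without tumor 5, where the log2 differences were 0.79 and 0.85 and the highest adjusted p was 0.0529. Sat1 was higher in endothelial-like cells by 2.03 ± 0.27 (edgeR adjusted p = 1.23e-06), at 439, 783, 269, 410 and 417 CPM in tumors 1 to 5 against 125, 165 and 72.8 CPM in progenitor-like cells of tumors 2, 4 and 5. Odc1 was higher by 0.85 ± 0.30 (edgeR adjusted p = 0.0272), a call lost without tumor 2, 4 or 5 and at a mitochondrial limit of 10%. The others did not pass: Paox 0.06 ± 0.39, Amd1 −0.56 ± 0.33, Srm −0.28 ± 0.22, Sms 0.62 ± 0.36 and Azin1 −0.43 ± 0.22. Thus 3 of 8 passed, where 35.2% of 14437 genes did, 17.9% higher and 17.3% lower. The median log2 difference was 0.34 for the 8 and −0.11 for all genes tested.

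Of 29 other pathway genes tested, 5 were higher and 5 lower in endothelial-like than in progenitor-like cells, with a median log2 difference of −0.05. The arginine transporter Slc7a1 was at 237 to 620 CPM in endothelial-like cells and 15.3 to 20.2 CPM in progenitor-like cells of tumors 2, 4 and 5 (log2 difference 4.52 ± 0.34). Gatm (3.99 ± 0.45) and Slc3a2 (1.80 ± 0.21) were also higher. Atp13a2 (−2.06 ± 0.26), Oat (−1.47 ± 0.21) and Sat2, a relative of Sat1 (−1.92 ± 0.41), were lower.

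Microglia-like cells of tumors held more Paox, Sat1 and Sms and less Amd1 than neural progenitor-like cells. Paox was higher by 2.64 ± 0.30 (edgeR adjusted p = 1.09e-07), at 31.7, 45.3, 31.9, 47.0 and 19.6 CPM in microglia-like cells of tumors 1 to 5 against 6.93, 9.22 and 7.44 CPM in progenitor-like cells of tumors 2, 4 and 5. Sat1 was higher by 2.57 ± 0.28 (edgeR adjusted p = 4.12e-08). Sms was higher by 1.23 ± 0.31 (edgeR adjusted p = 0.00232), at 20.4 to 33.6 CPM against 5.54, 9.29 and 33.5 CPM, with the progenitor-like cells of tumor 5 far above those of the other 2. That call was lost without tumor 2. Amd1 was lower by 0.92 ± 0.29 (edgeR log2 difference −0.92, adjusted p = 0.0124). Smox missed the threshold with a log2 difference of 0.49 ± 0.24 (edgeR adjusted p = 0.103), and passed without tumor 4. Odc1 (−0.50 ± 0.29), Srm (−0.16 ± 0.20) and Azin1 (−0.01 ± 0.20) did not pass. With 38.3% of 14437 genes past the threshold, 19.9% higher and 18.3% lower, 4 of 8 members passed, and the median log2 difference was 0.24 for the 8 and −0.02 for all genes tested. Of 29 other pathway genes 4 were higher and 5 lower. Gatm (3.69 ± 0.43), Arg1 (3.70 ± 0.87) and Slc3a2 (0.75 ± 0.20) were higher, and 56 of the Arg1 UMIs in microglia-like cells came from tumor 4 and 5 from tumor 2. Mycn (−1.65 ± 0.46), Sat2 (−1.03 ± 0.31) and Oat (−0.71 ± 0.19) were lower.

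Cycling and non-cycling neural progenitor-like cells were compared within tumors, since polyamines are tied to growth. Of 8 members 0 passed between cycling and non-cycling cells (edgeR), and 0 with DESeq2 or limma voom, where 4.65% of 14627 genes passed, 4.07% higher and 0.581% lower. At an unadjusted p under 0.05 there were 2, Sat1 (−0.71 ± 0.28) and Azin1 (0.50 ± 0.22). Smox was at 26.3, 51.2 and 31.3 CPM in cycling and 26.7, 60.3 and 57.5 CPM in non-cycling cells of tumors 2, 4 and 5 (edgeR log2 difference −0.29 ± 0.26, adjusted p = 0.727). An interval of 2 SE around it ran from −0.82 to 0.24. Odc1, which is a well known target of Myc, was at 127, 153 and 316 CPM in cycling and 95.7, 109 and 225 CPM in non-cycling cells, higher in 3 of 3 tumors, with a log2 difference of 0.51 ± 0.30 (edgeR adjusted p = 0.499). Amd1 (0.30 ± 0.29), Paox (0.21 ± 0.35), Srm (0.06 ± 0.21) and Sms (0.00 ± 0.32, fitted as 0.0027) gave no call. The median was 0.13 for the 8 and −0.09 for all genes tested. Of 29 other pathway genes 1 was lower, Sat2 (−1.11 ± 0.32), and 0 were higher.

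**Figure D4:**
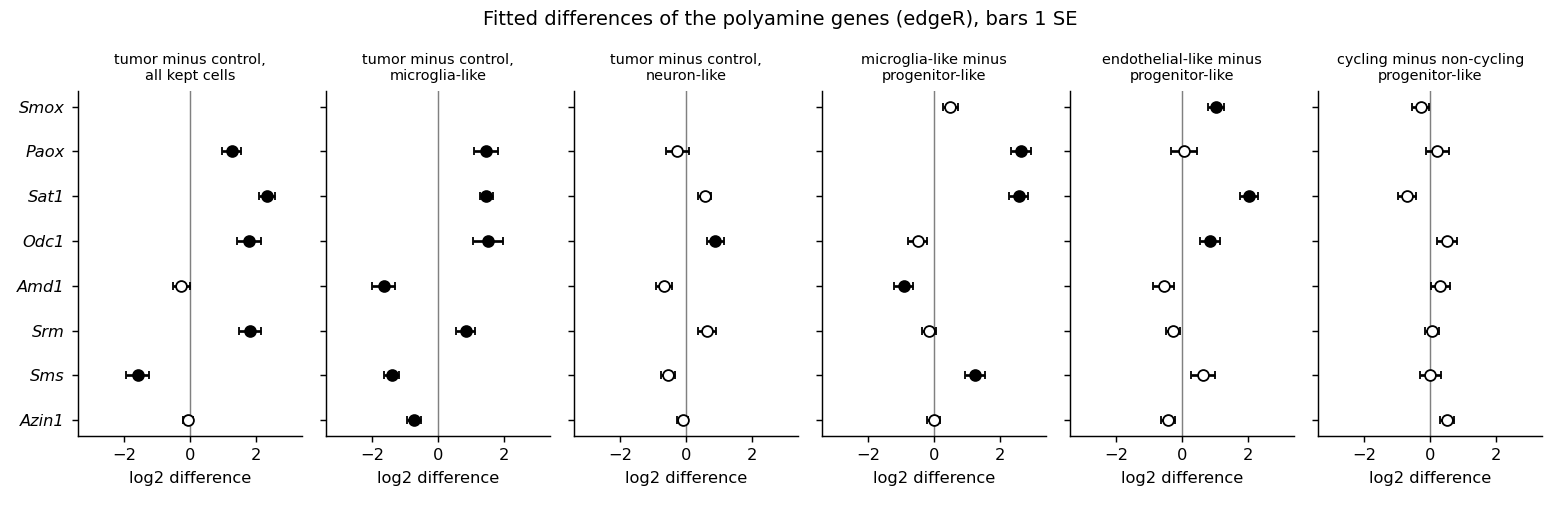
Fitted log2 differences of the members (edgeR) in 6 comparisons, with bars of 1 SE. Filled points had an adjusted p under 0.05, and Smox is left out of the 3 tumor minus control panels, where it was not tested. The filled points number 5, 7 and 1 in these panels and 4, 3 and 0 in the comparisons within tumors.

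Across 41 sums of 1 class in 1 mouse (9 classes and 9 mice, 28 sums from tumors), the log2(CPM + 1) of Smox ran most like that of Sptssa, a small subunit of serine palmitoyltransferase, with a Pearson r of 0.894 among 10621 genes. Scp2 (0.854), Hadha (0.83), Arhgdia (0.827) and Zmpste24 (0.824) followed. Among the members r was 0.706 for Sat1, 0.684 for Srm, 0.522 for Odc1, 0.235 for Paox, −0.09 for Azin1, −0.29 for Amd1 and −0.48 for Sms. These values are descriptions: sums of 1 mouse share a library, its free RNA and its depth, and tumor and control sums lie apart for many genes.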

How the data were processed

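Per the labels and file headers, 10x 5' libraries were run by the authors through Cell Ranger (6.1.2 in the headers and 7 in the submitters' processing notes) on build mm10. What was deposited is a UMI count for each barcode and gene, with no normalization. The notes also name Scanpy 1.8.2. For control 4 the barcode list (80865) is shorter than the matrix (80887), so barcodes were used by column and its added sequences were not read.

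Of the 10000 barcodes with most UMIs per library, those with 200 to 6000 genes were kept, a 2-component mixture on mitochondrial share and gene number (scikit-learn 1.9.0) removed the component of higher mitochondrial share, and Scrublet in Scanpy 1.11.5 removed doublets at 0.8% per 1000 barcodes. A cell was gated into the class with the largest share of its markers detected, if at least 3 were and that share was at least 1.3 times the next, and was called cycling with at least 3 of 10 cycling markers. Counts were summed per mouse and class, for sums of at least 50 cells. Groups were compared in classes with such sums in at least 3 mice per group, and the fits within tumors held every such tumor sum of the brain cell classes, also of classes in 1 or 2 tumors. The sums were tested with the edgeR 4.0.16 quasi-likelihood test (R 4.3.3, TMM, filter on low counts, Benjamini-Hochberg over all genes tested, threshold 0.05), with mouse as a block for classes within tumors. CPM is per 1000000 UMIs of the sum. Replicates are mice by the labels, and class tests within tumors share mice. Free RNA was subtracted with the profile of the 3000 barcodes of fewest UMIs in a library.

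Named genes were the 8 members, the 3 of smallest p per direction and comparison among 37 other pathway genes, and the 5 genes most like Smox with a mean of at least 10 CPM. The members and lists were chosen with earlier results of these data known. Alternatives were DESeq2 1.42.0, voom of limma 3.58.1, no filter, other cell filters, a stricter gate, a replicate block and leaving out mice. Library size scaling, leaving out pairs of tumors, free RNA subtraction and the comparison of tumor differences between microglia- and neuron-like cells were added after seeing the data. The scripts were tested on simulated data.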

Additional observations from a re-analysis of the deposited data

Results flagged for a closer look

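Odc1 over all kept cells stood at 245 CPM in tumor 5, far from the other 4 tumors (79.5 to 123 CPM): the gap to the nearest tumor was 0.737 of the group's range. It was the 1 outlier among 48 groups of values examined. Chance alone is taken to flag about 1 in 20 of such groups, and 1 in 48 is not above that share. Odc1 was also highest in tumor 5 in astrocyte-like (178 CPM) and endothelial-like cells (388 CPM). In microglia-like cells tumor 4 was highest (123 CPM), with tumor 5 at 94.4 CPM.

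The tumor difference of Paox was larger in microglia-like than in neuron-like cells by 1.83 on the log2 scale, and that of Sat1 by 0.90 (edgeR interaction term, adjusted p = 0.0126 and 0.00451). Paox rested on 9, 6 and 1 UMIs in the neuron-like cells of tumors 1, 2 and 5. Neither passed with free RNA subtracted by the erythroid list.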

How the results depend on the processing

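Over all kept cells the same 5 members passed under each of 19 alternatives, where 46.1% to 74.2% of all genes did. The Smox difference was 2.37 to 2.61 with 1 mouse left out and 1.77 with a pseudocount of 10. In microglia-like cells 5 to 7 of 7 passed with 1 mouse left out, beside 27.5% to 41.8% of all genes. With free RNA subtracted by the neuron list 2 passed, beside 29.1% of all genes, where Amd1 was not tested and Sms reversed to 0.87. In neuron-like cells the count of 1 became 4 with DESeq2, 0 with voom, 2 with library size scaling, 2 at a mitochondrial limit of 10%, 0 with the stricter gate, 2 with free RNA subtracted by the erythroid list, and 0 to 3 with 1 mouse left out. Without tumor 1 it was 3, without tumor 2 it was 2, and without tumor 5 or any 1 control 0. The share of all genes called moved too, from 17.5% to 24.4% with DESeq2, 18.1% with voom, 17.9% with library size scaling, 18.3% at the mitochondrial limit, 14.5% with the stricter gate, 16.8% with free RNA subtracted and at most 23.1% with 1 mouse left out. The difference between those classes was called for 1 to 2 members with 1 mouse left out (1 without tumor 2) and 0 with free RNA subtracted, where 4.45% of all genes passed. Endothelial-like against progenitor-like cells gave 1 to 4 (1 without tumor 2), beside 22.6% to 38.0% of all genes. Microglia-like against progenitor-like cells gave 3 to 6, beside 25.1% to 46.7%. Cycling gave 0 in every alternative run.

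Scaling by library size in place of TMM moved the median log2 change of all genes by −0.24 over all kept cells, −0.40 in microglia-like cells, −0.35 between microglia- and progenitor-like cells and −0.65 for the difference between classes. The share of calls that were higher went from 45.6% to 21.9% in microglia-like cells (66.6% with the neuron list), from 50.5% to 60.7% in neuron-like cells, from 52.1% to 31.1% between microglia- and progenitor-like cells and from 41.6% to 5.11% for the difference between classes. In the last, Amd1, Sms and Azin1 were then called in place of Paox and Sat1.

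Mice of 1 number share only a number: deviations of same-numbered mice correlated at 0.0068 to 0.047. With the replicate block 5 members passed over all kept cells, 5 in microglia-like cells and 0 in neuron-like cells, where 50.1%, 32.1% and 5.17% of all genes did. The planned comparisons between groups in endothelial-, astrocyte- and oligodendrocyte-like cells, and of the tumor difference between microglia- and endothelial-like cells, were not run for want of 3 controls with 50 cells. Depth limits small sums: Smox rested on 6 to 17 UMIs per mouse in control microglia-like cells, and Paox on 1 to 9 in tumor neuron-like cells.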

Other observations

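Within tumors, cells with a UMI of the fusion or luciferase sequence and cells without one differed for several members, by values that were not tested. Srm, the spermidine synthase, stood at 46.8, 48.3, 71.9, 81.7 and 51.7 CPM in cells with such a UMI of tumors 1 to 5 and at 26.8, 43.6, 47.6, 66.3 and 45.4 CPM in the other cells, higher in 5 of 5 tumors. Sat1 ran the other way, at 180, 155, 98.1, 187 and 116 CPM with and 221, 312, 373, 339 and 175 CPM without such a UMI. Odc1 was at 144, 114, 171, 118 and 269 CPM with and 76.1, 128, 78.9, 114 and 232 CPM without, higher in 4 of 5 tumors.

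The 3000 barcodes of fewest UMIs per library also differed between groups for the members. Sat1 stood there at 49.9 to 54.6 CPM in controls and 121 to 274 CPM in tumors, Odc1 at 43.9 to 48.9 and 53.0 to 200.3 CPM, and Sms at 114 to 142 and 16.3 to 63.9 CPM. Amd1 was lower there in all tumors than in all controls, with means of log2(CPM + 1) of 4.63 and 6.01. Srm overlapped, at 24.5 to 30.1 and 18.8 to 54.1 CPM, and so did Paox, at 3.49 to 6.94 and 3.99 to 11.1 CPM, and Azin1.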
